A study of Mus musculus with 18 samples.

Results

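Untreated cortical neural progenitor cells of the mouse are described here by the level, rank and spread of their transcripts. They are the 6 libraries, of 18 in the series, that the sample titles give as Upf2fl/fl cells with no treatment, numbered replicates 3, 4, 5, 6, 8 and 9. They are called mock here. The title of the study asks how nonsense-mediated mRNA decay (NMD, which removes messenger RNAs that stop translation too early) and TRP53 together set progenitor maintenance and brain size. The other 12 libraries, 6 of Upf2fl/fl cells and 6 of Upf2fl/fl Trp53fl/fl cells, all titled as treated with AAV9-Cre, were not used. The mock cells came from cortex on a C57BL/6 background and carried floxed alleles of Upf2, a core NMD factor, with no Cre and no virus. Each well was plated with 200000 cells in DMEM/F12 medium with B27 and antibiotics, and growth factor additions are not given in the labels. The mock wells received plain medium in the volume used for the virus, had it exchanged at 14 h and were harvested at 72 h. Total RNA with an RNA integrity number of at least 9.0 was made into stranded total RNA libraries (Illumina TruSeq). The labels call the replicates biological but do not say whether they came from separate animals, so the spread below is that between these cultures and may hold technical variation.

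Cortical progenitors known as radial glia line the ventricles of the developing forebrain, divide there, and give rise to neurons and later to astrocytes and oligodendrocytes. They are recognised by the transcription factors Sox2 and Pax6, the intermediate filament proteins nestin (Nes) and vimentin (Vim), and the fatty acid binding protein Fabp7. In culture with growth factors such cells can be kept dividing, and their regional and lineage programmes can drift from those of the tissue. All 5 of these markers were present in every library: Fabp7 was among the most abundant messenger RNAs of the cells, Vim, Nes and Sox2 were high, and Pax6 was low.

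Values are TPM, transcript abundances corrected for length that the authors scaled to the same total in each library. TPM can therefore be compared between genes, but keep no read total, so the depth is unknown and no detection limit can be given. Of 55573 genes, 12666 (22.8%) reached 1 TPM in all 6 libraries, and of 21980 protein-coding genes 10845 (49.3%) did. Every count below of list members at 1 TPM stands beside these shares. In any 1 library, 14026 to 14657 genes reached 1 TPM, and 27715 genes were listed at 0 in all 6. Across the 14485 genes with a mean of at least 1 TPM, replicates 4, 5 and 6 resembled each other most (Pearson r of log2(TPM + 1) 0.986 to 0.988), and replicate 3 stood farthest away (r 0.892 to 0.920 with the others). Replicate 3 was at least 2-fold from the mean of the others in 2770 of these genes (19.1%) and replicate 8 in 1808 (12.5%), against 195 to 573 in replicates 4, 5, 6 and 9. By position alone, replicate 3 was the lowest of the 6 libraries in 28.1% of the genes and the highest in 32.6%, and replicate 8 was the lowest in 34.7% and the highest in 20.8%. Where the mean of a gene moved most without replicate 3, the value in that library is therefore given apart from the others, or the mean without it. Below, means ± SD are over the 6 libraries, and genes are placed by rank among protein-coding genes.

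Transcripts of energy metabolism and translation were at the top of the list. The mitochondrially encoded mt-Co1, a subunit of cytochrome c oxidase, held 24853 ± 7035 TPM and mt-Cytb, the cytochrome b of the respiratory chain, 15501 ± 2309. Among nuclear protein-coding genes the highest was Rplp1, a protein of the large ribosomal subunit, at 11357 ± 1798 TPM, followed by the translation elongation factor Eef1a1 at 11138 ± 3944 and the brain-type creatine kinase Ckb at 9550 ± 1614. Fabp7 came next, and after it mostly ribosomal proteins, with the tubulin Tubb2b (4284 ± 440), the actin Actb (4050 ± 994), the elongation factor Eef2 (3860 ± 973) and the acyl-CoA binding protein Dbi (3643 ± 1066) between them. The 10 highest genes held 11.5 ± 1.05% of the total, the 100 highest 32.6 ± 1.39% and the 1000 highest 65.3 ± 1.37%, and 366 genes held 50%. Of 85 ribosomal protein genes 81 reached 1 TPM in every library, and together they held 14.5% of the total, while the 13 mitochondrially encoded mRNAs held 6.22%. Both sums were highest in replicate 3, at 165665 and 77611 TPM, against 135959 to 152409 and 51943 to 66733 in the other 5. Replicate 3 was the highest library in 56 of the 82 ribosomal protein genes with a mean of at least 1 TPM, beside 32.6% of all genes. Of the 13 mitochondrially encoded mRNAs it was highest in only 2, and replicate 8 was highest in 8, beside 20.8% of all genes. The mitochondrial sum of replicate 3 held mt-Co1 at 39011 TPM, against 20475 to 23456 in the other 5.

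Some of the highest entries outside the protein-coding genes share sequence with other genes. Gm10736, a processed pseudogene of 78 bases on the minus strand of chromosome 13 (mm10 chr13:111593534-111593611), was listed at 12455 ± 1986 TPM, at rank 3 of all genes. Over 68 bases it is identical to Rpl41, a ribosomal protein gene listed at 2640 TPM, and the long noncoding entry Gm10076 (3750 ± 374) is 99.4% identical to Rpl41 over 333 bases. How reads shared between these copies were divided is not given in the sources used here, so the split between them is uncertain. Another short entry, Gm23935, 57 bases on chromosome 16 annotated as a microRNA, was listed at 20334 TPM in replicate 6 and at 968 to 2986 in the other 5. Its near-identical copies Gm24270 and Gm24187 did not share that peak, with 1786 and 595 TPM in replicate 6 within ranges of 762 to 2351 and 537 to 1613.

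The progenitor markers filled a wide range of levels. Fabp7 (chromosome 10, 57784881 to 57788450, plus strand) had a lowest value of 3138, a median of 7585 and a highest value of 10688 TPM, with a mean of 7223 ± 3002, rank 7. It was lowest in replicates 8 and 3 and highest in replicate 5. Vim (chromosome 2, 13573927 to 13582826, plus) ranged from 597 through a median of 1313 to 2163 TPM, with a mean of 1246 ± 555 and rank 102. Its order across the libraries was different, with replicate 3 highest and replicates 8 and 9 lowest. Nes (chromosome 3, 87971078 to 87980451, plus) had a lowest value of 318 in replicate 3, a median of 690 and a highest of 766 TPM (mean 616 ± 169, rank 214). Sox2 (chromosome 3, 34650405 to 34652461, plus), which keeps progenitors undifferentiated, had 116, 215 and 252 TPM as lowest, median and highest (mean 199 ± 49.5, rank 781). Pax6 (chromosome 2, 105668900 to 105697364, plus), a factor of dorsal forebrain progenitors, had 3.26, 8.87 and 15.8 TPM (mean 8.57 ± 4.24, rank 8418). Without replicate 3 the means were 7779 for Fabp7, 1062 for Vim, 676 for Nes, 194 for Sox2 and 7.12 for Pax6, so the order of the 5 was the same.

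The wider radial glia list had 16 members, of which 15 (93.8%) reached 1 TPM in every library, beside 49.3% of all protein-coding genes. Its median was 153 TPM, beside 15.2 for all genes with a mean of at least 1 TPM. Slc1a3, the glutamate transporter GLAST, averaged 537 ± 104 TPM, the receptor phosphatase Ptprz1 355 ± 69.4 and the matrix protein Tnc 211 ± 98.7. Sox9, a factor that maintains progenitors and promotes glial fates, averaged 107 ± 32.4. Prom1, which encodes the surface protein prominin used to sort neural stem cells, was the lowest at 4.42 ± 3.88, with 11.6 TPM in replicate 3 and 0.387 in replicate 8. Since these are bulk cultures, fewer cells of a type and less RNA per cell cannot be told apart here or in any level below.

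Dorsal forebrain factors ranged from a listed 0 to a mean of 38.4 TPM. Of 10 such factors, 5 (50%) reached 1 TPM in every library, a share close to the 49.3% of all protein-coding genes, among them Lhx2 (38.4 ± 6.85 TPM), Nr2f1 (33 ± 5.61), Emx2 (14.9 ± 5.28) and Dmrta2 (11.5 ± 9.79). Lhx2, a selector gene of the cortex, kept within a narrow span of 32 to 51.8 TPM. Emx1, a homeobox gene of the dorsal cortex (chromosome 6, 85187438 to 85204462, plus), was listed at 0 in all 6 libraries, as were the general RNA components Rmrp and Rpph1, so a value of 0 is given only as listed. Neurog2, the proneural factor of cortical neurogenesis, had 3.91 TPM in replicate 3 and 0.227 to 0.964 in the others, and Tbr1, a factor of deep-layer neurons, did not exceed 0.108.

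Olig1 and Olig2 were the most abundant transcription factors of the lists used here. These basic helix-loop-helix factors of oligodendrocyte precursors and ventral progenitors, which are also induced in cultured progenitors, averaged 1760 ± 515 and 791 ± 186 TPM, at ranks 69 and 161. Olig2 (chromosome 16, 91225457 to 91228677, plus) had a lowest value of 447 in replicate 3, a median of 848 and a highest of 972 TPM. The ventral homeobox factor Gsx1 averaged 18.3 ± 10 TPM, with 3.42 TPM in replicate 3 and 10.2 to 31.7 in the others. Of the 12 members of this list, 4 (33.3%) reached 1 TPM in every library, beside 49.3% of all protein-coding genes, among them Olig1, Olig2 and Gsx1. The Dlx genes, which mark ventral cells on the way to interneurons, averaged between 0.0875 (Dlx6) and 0.65 TPM (Dlx2, 0.195 without replicate 3), and Nkx2-1, the factor of the medial ganglionic eminence, was listed at 0. Of 11 midbrain, hindbrain and spinal cord factors only En2 reached 1 TPM in every library (2.9 ± 1.03), beside Gbx2 at a mean of 3.54 ± 2.23, and the Hox genes Hoxa5, Hoxb5, Hoxb8 and Hoxc6 did not exceed 0.0959.

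Of 16 genes of differentiated neurons, 6 (37.5%) reached 1 TPM in all libraries, beside 49.3% of all protein-coding genes, and the list median was 1.38 TPM. With a minimum of 0.1 TPM the count was 10, and with 5 TPM it was 3. Its highest members were Gap43 (157 ± 82.5), Map2 (69.3 ± 22.6) and Tubb3 (47.7 ± 32.6, with a mean of 35.5 without replicate 3), cytoskeletal and growth cone genes that progenitors can also express. The more neuron-restricted Dcx averaged 1.36 ± 0.752 TPM, Rbfox3, which encodes NeuN, 1.86 ± 0.565, and Stmn2 0.00796. No interneuron gene of 8 reached 1 TPM in every library. Among 8 genes of intermediate progenitors, the neurogenic daughter cells of radial glia, their defining factor Eomes did not exceed 0.751 TPM, whereas the antiproliferative gene Btg2 averaged 158 ± 159. Replicate 3 was the highest library in 6 of the 6 of these genes with a mean of at least 1 TPM, beside 32.6% of all genes, and the summed level was 831 TPM there, against 104 to 240 in the other 5. Btg2 alone had 477 TPM in replicate 3 and 55.1 to 132 in the others.

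Of 11 astrocyte genes 10 (90.9%) reached 1 TPM in every library, beside 49.3% of all protein-coding genes. Their best-known marker, the intermediate filament Gfap (chromosome 11, 102887336 to 102900912, minus), had the largest spread of the 7986 nuclear protein-coding genes with a mean of at least 10 TPM. Gfap was at 186 TPM in replicate 3, at 17.8 in replicate 8 and at 20.9 in replicate 9, against 1 to 2.07 in replicates 4, 5 and 6. The glutamine synthetase Glul averaged 853 ± 504 TPM and the glial aldolase Aldoc 638 ± 235, and both were highest in replicates 8 and 9. The sum over the list was 3630 and 3738 TPM in replicates 8 and 9 and 2538 in replicate 3, against 1590 to 1786 in replicates 4, 5 and 6. In the oligodendrocyte lineage list 8 of 11 genes (72.7%) reached 1 TPM throughout, beside the same 49.3%, led by the Olig genes. Pdgfra and Cspg4, receptor and proteoglycan of oligodendrocyte precursors, averaged 22.2 ± 14.5 and 23.7 ± 10 TPM, and Gpr17, a receptor of cells about to differentiate, had 213 TPM in replicate 9 and 14.7 to 54.4 in the others. The myelin genes Mbp, Mag and Mog had their highest values, 6.43, 1.03 and 0.644 TPM, in replicate 9.

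Marker genes of cells of other origins were mostly under 1 TPM. Of 10 microglial genes none reached 1 TPM, 7 (Aif1, Cx3cr1, Ptprc, C1qa, C1qb, Itgam and Trem2) were listed at 0 in all libraries, and the sum ran from 0 to 0.39 TPM. The 10 vascular genes summed to 1.12 to 1.31 TPM, with none at 1 TPM. In the meningeal fibroblast list Foxc1 alone had a mean above 1 TPM (4.17 ± 1.45), and the collagens Col1a1 and Col3a1 averaged 0.186 and 0.00155. Foxj1, the factor of ciliated ependyma, averaged 28.4 ± 9.31 TPM, and the other 6 genes of ependyma and choroid plexus averaged under 1 TPM, with the choroid plexus gene Ttr above 0 in replicate 8 alone. Of 6 genes of pluripotent cells the nuclear receptor gene Esrrb was the highest, with 0.789 TPM in replicate 3 and 3.43 to 5.5 in the others. Pou5f1, Zfp42 and Dppa4 were listed at 0, and Nanog and Lin28a averaged 0.28 and 0.0881 TPM.

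**Figure D1:**
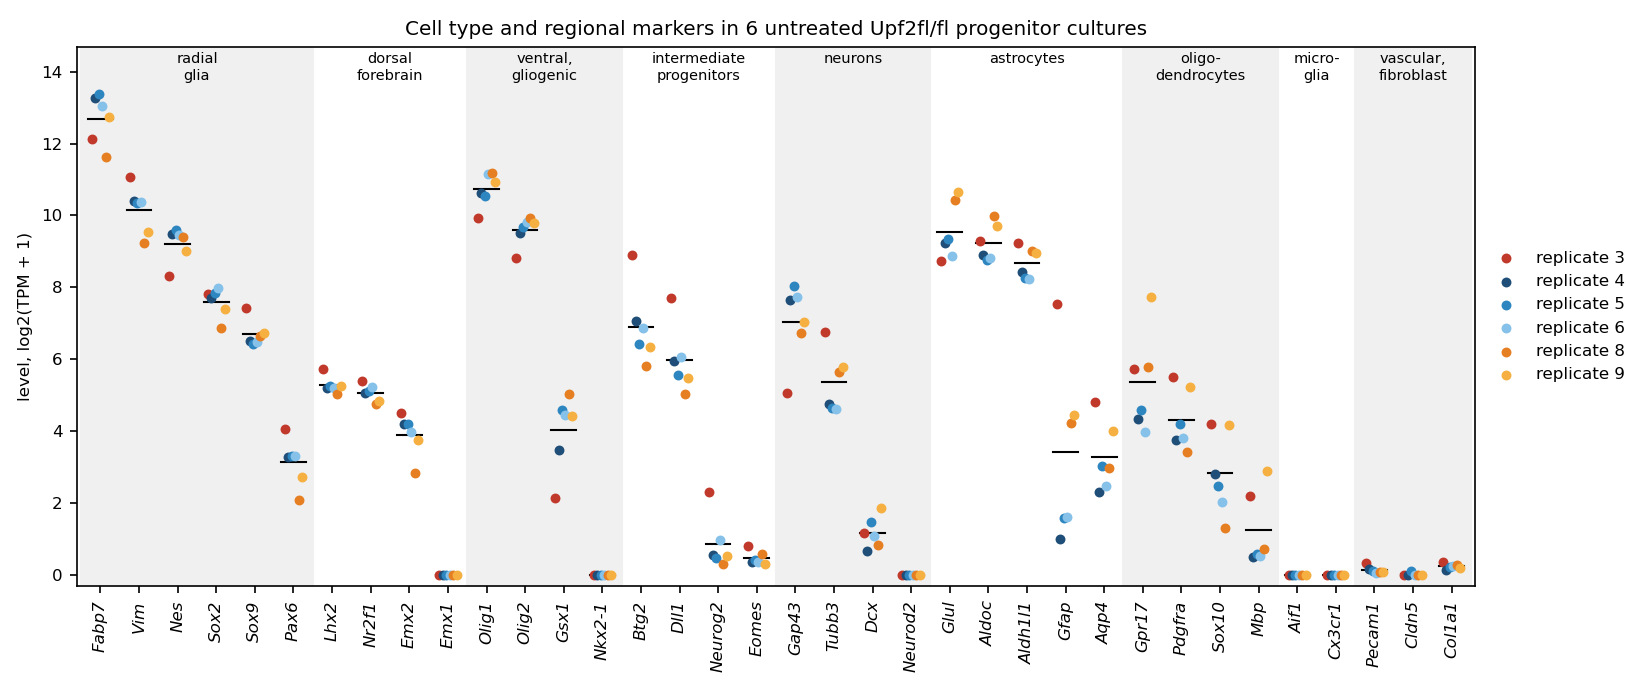
TPM on a log2(TPM + 1) axis of marker genes of radial glia, regional factors and other cell types, with 1 point for each of the 6 untreated libraries and a black bar at the mean of the log2 values. Fabp7, Vim, Nes, Olig1 and Olig2 lie at the top, Emx1 and Nkx2-1 lie at 0, and Gfap spans 1 to 186 TPM.

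Promoter sequences are shown for 4 of these genes because they span the range of levels: Fabp7, near the top of the list with few CpG dinucleotides in its promoter, Vim and Olig2, high with a TATAAA motif, and Emx1, listed at 0 with a CpG-rich promoter. Each is the 250 bases before the RefSeq start on GRCm38.p6 (the build also called mm10), all on the plus strand, read 5′ to 3′. Capitals mark TATAAA in the last 50 bases before the start, and CCAAT and GGGCGG, or their complements ATTGG and CCGCCC, anywhere. The windows are chr10:57784673-57784922 for Fabp7, chr2:13574061-13574310 for Vim, chr16:91225300-91225549 for Olig2 and chr6:85187681-85187930 for Emx1.
Fabp7: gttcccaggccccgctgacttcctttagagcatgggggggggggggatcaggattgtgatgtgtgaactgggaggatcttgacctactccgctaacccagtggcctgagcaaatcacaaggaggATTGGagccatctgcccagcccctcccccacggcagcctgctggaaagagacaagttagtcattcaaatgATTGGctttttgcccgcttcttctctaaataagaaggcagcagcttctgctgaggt
Vim: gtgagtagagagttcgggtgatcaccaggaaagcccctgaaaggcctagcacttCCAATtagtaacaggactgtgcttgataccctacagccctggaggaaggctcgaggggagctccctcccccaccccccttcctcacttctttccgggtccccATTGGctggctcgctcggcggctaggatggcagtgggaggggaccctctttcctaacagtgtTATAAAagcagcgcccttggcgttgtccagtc
Olig2: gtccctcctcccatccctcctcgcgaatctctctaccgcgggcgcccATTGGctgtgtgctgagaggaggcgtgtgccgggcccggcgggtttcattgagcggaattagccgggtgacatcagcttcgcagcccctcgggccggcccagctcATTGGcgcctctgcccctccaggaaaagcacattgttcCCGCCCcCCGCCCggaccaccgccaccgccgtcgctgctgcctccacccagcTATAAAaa
Emx1: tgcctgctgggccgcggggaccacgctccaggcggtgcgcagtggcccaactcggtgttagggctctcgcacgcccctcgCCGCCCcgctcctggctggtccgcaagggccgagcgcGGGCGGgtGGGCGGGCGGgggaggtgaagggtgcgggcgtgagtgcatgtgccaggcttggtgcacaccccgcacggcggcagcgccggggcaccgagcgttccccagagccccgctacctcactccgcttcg
The GC-rich GGGCGG is the core of sites for Sp-family factors, CCAAT is bound by NF-Y, and TATAAA is the core of the TATA box near the start. Counted over 300 bases (250 before to 50 after the start), Fabp7 held 2 CCAAT, no GGGCGG and no TATAAA, and its CpG content was 0.276 of that expected from its bases. Vim held 2 CCAAT and 1 TATAAA with a CpG ratio of 0.421, and Olig2 2 CCAAT, 2 GGGCGG and 1 TATAAA with a ratio of 0.815. Emx1, with no transcript listed, held 4 GGGCGG and the highest CpG ratio of the 4, 0.903. Such matches describe letters only and say nothing of what is bound there.

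Over the 16492 of 21967 nuclear protein-coding genes with a matched promoter, CpG content went with level up to about 100 TPM. The median CpG ratio was 0.197 for genes under 0.1 TPM, 0.47 at 0.1 to 1 TPM, 0.72 at 1 to 10, 0.808 at 10 to 100, 0.82 at 100 to 1000 and 0.853 at 1000 TPM and over. GGGCGG on either strand was found in 17.1% of promoters in the lowest class and in 60.2% to 70% of those in the 4 classes from 1 TPM up, beside 48% of all. CCAAT was more even, in 33.8% to 43.7% of promoters across the classes and in 38.7% of all. TATAAA was found in 7.09% of promoters of genes under 0.1 TPM, in 0.793% of those at 10 to 100 TPM and in 5.68% of the 88 genes at 1000 TPM and over, beside 3.41% of all. The genes at 1000 TPM and over were also short, with a median span of 3.85 kb beside 34.1 kb for genes at 1 to 10 TPM. The ratio of Fabp7 thus lay between the medians of the 2 lowest classes, and that of Emx1 above the median of the highest class.

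Genes of the G1/S transition were lowest in replicate 3, and those of G2 and M phase were lowest in replicate 3 or replicate 8. Of 20 genes of the G1/S transition and DNA replication, all had a mean of at least 1 TPM and 18 reached it in every library, and replicate 3 was the lowest library in 20 of 20, beside 28.1% of all genes. The list summed to 612 TPM in replicate 3, against 2209 to 3172 in the other 5. Pcna, the sliding clamp of DNA polymerase, had a lowest value of 80.2, a median of 346 and a highest of 570 TPM. Its lowest value was in replicate 3, followed by 126 TPM in replicate 8 and 245 in replicate 9. Mcm3, a subunit of the replicative helicase, had 41.2 TPM in replicate 3 and 234 to 286 in the others. The licensing factor Cdc6 had 1.44 TPM in replicate 3 and 22.3 to 31.9 in the others, and the cyclin Ccne2 0.341 and 7.76 to 30.7. Genes of G2 and M phase were all at 1 TPM or more in every library, with a sum of 1551 TPM in replicate 3, against 2205 to 3165. Replicate 3 was lowest in 11 and replicate 8 in 9 of these 20 genes, beside 28.1% and 34.7% of all genes. Mki67, the proliferation antigen, had a lowest value of 53.3 in replicate 3, a median of 126 and a highest of 189 TPM, and the anaphase activator Cdc20 was the highest of the list at 345 ± 66.3. The mitotic cyclin Ccnb1 had 158 TPM in replicate 3 and 101 in replicate 8, against 216 to 269 in the other 4 libraries. In replicate 3 the sums of the intermediate progenitor and Notch lists, which share Dll1, Dll3 and Mfng, were the highest of the 6. The summed microglial, vascular and fibroblast levels there were 0, 1.31 and 1.94 TPM. The part of a differing cell makeup in the cell cycle values was not tested.

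D cyclins link growth signals to the cell cycle by activating Cdk4 and Cdk6. Ccnd1 (chromosome 7, 144929931 to 144939925, minus) had a lowest value of 30.4, a median of 825 and a highest of 1007 TPM, and the 5 libraries other than replicate 3 lay between 690 and 1007. Ccnd2 showed the same split, with 37 TPM in replicate 3 and 380 to 565 in the others. Ccnd3 was lower and less spread, at 31.8 ± 11.5. Their kinase Cdk4 was even across the cultures at 955 ± 104 TPM (855 to 1074), and Cdk6 was low, with 3.35 TPM in replicate 3 and 0.247 to 1.05 in the others. Among the 7 inhibitors of these and related kinases, all reached 1 TPM in every library. Replicate 3 was the lowest library in 5 of the 7 and the highest in 2, beside 28.1% and 32.6% of all genes. Their sum was 453 TPM in replicate 3, against 546 to 687 in the others. Cdkn1a, which encodes p21, averaged 201 ± 77.9 TPM with 98.3 in replicate 3 and 331 in replicate 8, whereas Cdkn1b (p27) and Cdkn1c (p57) were highest in replicate 3, at 135 and 53.9, and lowest in replicate 8, at 30.9 and 2.35. Cdkn2a, the Ink4a/Arf locus that is often induced in culture, averaged 44.7 ± 16.1.

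Growth factor receptors were present, and the feedback and target genes of their ERK pathway named below were lowest in replicate 3, as were Ccnd1 and Ccnd2. The whole list of receptors, ligands and feedback genes was split there. Of its 16 genes with a mean of at least 1 TPM, replicate 3 was lowest in 9 and highest in 6, beside 28.1% and 32.6% of all genes. Egfr averaged 138 ± 24.4 TPM, Fgfr3 78.2 ± 11, Fgfr1 59.9 ± 11.7 and Igf1r 9.36 ± 2.05, and in each the highest library was at most 1.92-fold above the lowest. Ligands were low: Hbegf averaged 12.3 ± 5.57 TPM, Fgf2 0.919 and Egf 0.334, and Igf2 was listed at 0. Dusp6, a phosphatase that is induced by ERK and switches it off, had 2.9 TPM in replicate 3 and 79.4 to 178 in the others. The Sprouty inhibitors Spry4 and Spry1 had 3.03 and 3.73 TPM in replicate 3, against 69.6 to 122 and 55.6 to 97.5. The ETS factors Etv5 and Etv4, further targets of the pathway, had 28.5 and 16.5 TPM in replicate 3, against 244 to 349 and 117 to 164. Whether the growth factor supply differed between the wells is not given in the labels and was not tested.

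**Figure D2:**
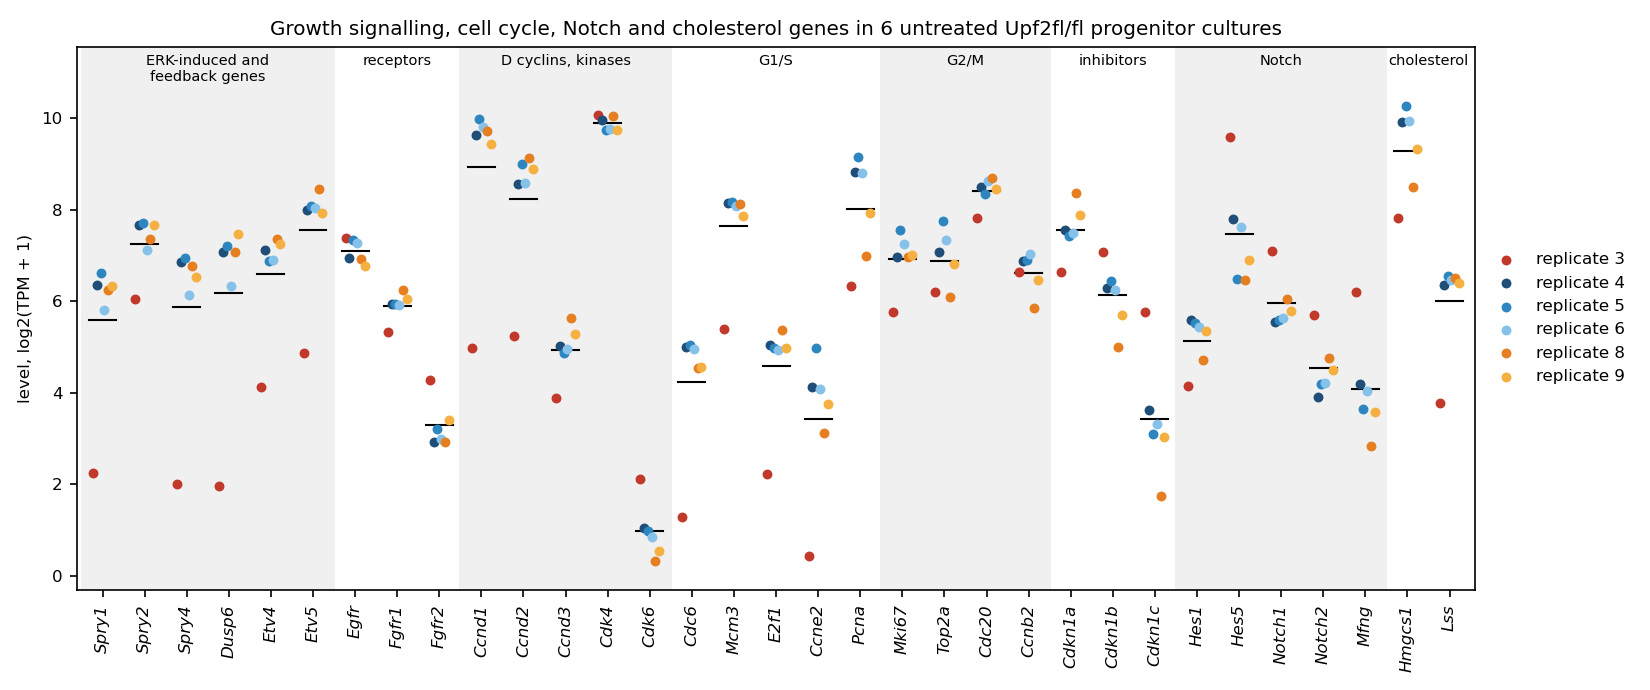
TPM on a log2(TPM + 1) axis of cell cycle, D cyclin, inhibitor, growth factor and Notch genes in the 6 untreated libraries, with 1 point per library and a black bar at the mean of the log2 values. Replicate 3 lies apart below the other 5 libraries for Ccnd1 (30.4 TPM), Dusp6 (2.9), Mcm3 and Cdc6, and above them for Hes5 (770). It is the lowest library for every replication gene drawn, but for Pcna it does not lie apart (80.2 TPM, against 126 in replicate 8).

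Notch signalling keeps progenitors from differentiating: ligands on one cell activate receptors on its neighbour, whose Hes genes then repress proneural factors. Of 22 pathway genes 17 (77.3%) reached 1 TPM in every library, beside 49.3% of all protein-coding genes. Replicate 3 was the highest library in 12 of the 18 with a mean of at least 1 TPM, beside 32.6% of all genes. The receptors Notch1 and Notch3 averaged 66.4 ± 34.9 and 65.3 ± 16.5 TPM, and Notch2 24.6 ± 13.7 (19.3 without replicate 3). Notch1 had 136 TPM in replicate 3 and 45.8 to 65.4 in the others. The ligand Dll1 had 208 TPM in replicate 3 and 31.5 to 66.4 in the others, whereas Jag1 had 4.63 there and 16.2 to 25 in the others. Lfng, a glycosyltransferase that tunes the receptor, was the highest gene of the list at 374 ± 91.1. The effector Hes5 had a lowest value of 87.4, a median of 157 and a highest of 770 TPM, the last in replicate 3, and the effector Hes1 had 16.8 there and 25.2 to 47.4 in the others. The summed level of the pathway was 1990 TPM in replicate 3, against 958 to 1199.

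Genes of other developmental pathways had a smaller median SD of log2(TPM + 1) over the libraries than those of the Notch list (0.583). It was 0.277 for hedgehog, 0.405 for Wnt and 0.483 for BMP genes, beside 0.383 over all genes with a mean of at least 1 TPM. Of 23 Wnt pathway genes 19 (82.6%) reached 1 TPM in every library, beside 49.3% of all protein-coding genes. The sum of the 23 stayed between 1098 and 1233 TPM, but single genes moved both ways. Of the 21 with a mean of at least 1 TPM, replicate 3 was lowest in 9 and highest in 9, beside 28.1% and 32.6% of all genes. Ctnnb1, which encodes beta-catenin, averaged 660 ± 71.7 TPM of a mean sum of 1153. The ligands Wnt7b and Wnt7a averaged 75.7 ± 22.8 and 74.5 ± 42.9. The negative feedback gene Axin2, a common readout of the pathway, averaged 24.4 ± 3.84, and its nuclear factor Lef1 0.0519. In the hedgehog list 9 of 12 genes (75%) reached 1 TPM throughout, beside 49.3% of all protein-coding genes, with the transducer Smo highest at 101 ± 12.9 TPM. The ligand Shh averaged 0.463 and the target Gli1 0.293, while the receptor and target Ptch1 had 58.6 TPM in replicate 3 and 21.3 to 28 in the others. Of 18 genes of the BMP pathway 11 (61.1%) reached 1 TPM in every library, beside 49.3% of all protein-coding genes. Id3, an inhibitor of proneural factors, averaged 230 ± 65.2 TPM, and Id4 had 74.8 in replicate 3, against 7.02 to 11. The ligand Bmp7 had 8.74 TPM in replicate 3, against 74.5 to 89.8, whereas the ligand Bmp2 averaged 0.117 TPM and Bmp4 and Bmp6 less.

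Metabolic genes were high and in part lower in replicate 3. All 19 genes of glycolysis reached 1 TPM in every library, with a median of 440 TPM, and replicate 3 was lowest in 15 of 19, beside 28.1% of all genes. Gapdh averaged 2945 ± 531 TPM, the phosphoglycerate kinase Pgk1 1574 ± 228, the enolase Eno1 1547 ± 560 and the pyruvate kinase Pkm 1213 ± 297. The lactate dehydrogenase Ldha had 254 TPM in replicate 3 and 809 to 1170 in the others, and the glucose transporter Slc2a1 17.5 and 63.5 to 96.2. All 21 genes of the cholesterol synthesis list were at 1 TPM or more in every library and lowest in replicate 3, beside 28.1% of all genes, with a sum of 1312 TPM there against 3618 to 4876. Hmgcs1, an early enzyme of the pathway, had a lowest value of 226, a median of 803 and a highest of 1227 TPM. Serine synthesis was high throughout: Phgdh, its first enzyme, averaged 951 ± 256 TPM and Psat1 527 ± 206, with both highest in replicate 3.

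The cytoskeleton was among the most abundant groups, with 18 of 18 genes at 1 TPM or more in every library and a median of 1330 TPM. Tuba1a and Tuba1b, alpha-tubulins that are 98.3% identical over 1357 bases, averaged 2573 ± 523 and 2419 ± 993 TPM, and how reads were divided between them is uncertain. Tmsb4x, which sequesters actin monomers, had 5319 TPM in replicate 3 and 673 in replicate 8. Replicate 3 was the lowest library in 13 of the 18 genes, beside 28.1% of all genes. In the adhesion and matrix list 15 of 16 genes reached 1 TPM throughout. The brain proteoglycans Ncan and Bcan led it at 761 ± 224 and 624 ± 244 TPM, and the cadherin of progenitor junctions Cdh2 averaged 85.8 ± 22.6. Lama2 was the exception with a mean of 0.07 TPM.

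The NMD factors were present at low to medium levels. Upf2, floxed but not deleted in these cells (chromosome 2, 5951469 to 6056703, plus) had a lowest value of 6.54, a median of 11 and a highest of 15.8 TPM, with a mean of 11.1 ± 2.98, the lowest of the 10 NMD factors. The helicase Upf1, which drives NMD, was the highest at 82.4 ± 12.2 TPM, and the endonuclease Smg6 averaged 25.4 ± 4.34. The paralogs Upf3a and Upf3b, which bind exon junctions, averaged 27.6 ± 2.13 and 22.7 ± 6.11. All 10 factors reached 1 TPM in every library, and their sum lay between 324 and 380 TPM. Trp53, which is not floxed in these cells per the labels (chromosome 11, 69580359 to 69591873, plus), had 81.4, 101 and 136 TPM as lowest, median and highest. Of 14 genes of p53 and its targets 13 reached 1 TPM throughout. Besides Cdkn1a these included Bax (115 ± 26.9), Ccng1 (101 ± 46.6), Phlda3 (101 ± 39.2) and the p53 ligase Mdm2 (23 ± 5.68), and the apoptosis gene Perp was the lowest at 1.17 ± 0.477.

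Stress and inflammatory programmes differed in level. The 10 genes of the integrated stress response all reached 1 TPM in every library, but after the serine enzymes the highest were its factor Atf4 (254 ± 66.2) and Asns (156 ± 46.7). Ddit3, its proapoptotic factor, averaged 7.97 ± 4.21 TPM (6.37 without replicate 3), and Chac1, a glutathione-degrading enzyme, had 36.9 and 30.8 in replicates 8 and 9, against 5.58 to 8.34. Immediate early genes summed to 210 TPM in replicate 3, against 409 to 477, with Egr1 at 9.95 and 29.1 to 119, and Myc at 16.2 and 62.8 to 110. Replicate 3 was lowest in 8 of the 11 with a mean of at least 1 TPM, beside 28.1% of all genes. It was not the lowest for the other 3: Fos had 32.4 TPM in replicate 3 and 4.5 to 9.84 in the others, Jund had 166 TPM in replicate 6 and 33.2 to 50.6 in the others, and Atf3 had 1.1 to 1.92 TPM with its lowest value in replicate 5. Of 9 interferon response genes only 1 reached 1 TPM in every library, and the sum was 5.75 to 10.6 TPM.

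Of 18 genes linked to microcephaly in humans, 17 (94.4%) reached 1 TPM in every library, beside 49.3% of all protein-coding genes. Most were low, with a median of 12.7 TPM. Nde1, a centrosome and dynein adaptor, was the highest at 134 ± 20 TPM, followed by the lipid transporter Mfsd2a at 68.1 ± 37.9. Aspm, a spindle pole protein, averaged 20.1 ± 5.56, Wdr62 15.5 ± 2.29 and Mcph1 6.95 ± 1.68. The list's sum was 370 to 457 TPM, and replicate 5 was the highest library in 12 of the 18, beside 26.7% of all genes.

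Genes often used for normalization were not equally steady. Gusb (30 ± 1.08 TPM) was among the least variable genes of all, and Sdha averaged 429 ± 52.9. Hprt, by contrast, had 110 to 132 TPM in replicates 4, 5 and 6, against 21.3 to 35.4 in replicates 3, 8 and 9. Actb had a lowest value of 2497 in replicate 3 and a highest of 5574 in replicate 8.

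In a list of 13 long noncoding RNAs the nuclear RNA Malat1 was the highest, with a lowest value of 146, a median of 193 and a highest of 410 TPM, below the entries outside the protein-coding genes given above. Of the 13, 7 (53.8%) reached 1 TPM in every library, beside 22.8% of all genes. Replicate 3 was the highest in 8 of the 8 with a mean of at least 1 TPM, beside 32.6% of all genes. Miat, a nuclear RNA of neural cells, had 153 TPM in replicate 3 and 4.52 to 11.6 in the others. Xist, the RNA of the inactive X chromosome, had 149 to 373 TPM, and the Y-linked Ddx3y, Eif2s3y, Kdm5d and Uty were listed at 0 in all 6 libraries. Among imprinted genes Mest was the highest, with 48.4 TPM in replicate 3 and 274 to 727 in the others, and H19 had 9.59 TPM in replicate 3 and 0.137 to 1.3 in the others. A rule by name for replication-dependent histones, whose main transcripts lack a poly(A) tail, took in 74 genes, of which 14 reached 1 TPM in every library. The highest, H1f0 at 452 ± 71.1 of a mean sum of 855, is a linker histone taken in by its name only. Of 1558 small nucleolar RNA genes 79 reached 1 TPM in every library, the highest being Snord104 at 231 ± 15.2. The 7SK RNA Rn7sk averaged 42.5 ± 19.5 TPM, and Terc was listed at 0.

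The spread between cultures was described by the SD of log2(TPM + 1) over the 6 libraries. Its median over the 14485 genes was 0.383, and 0.284 without replicate 3. It was smaller at higher levels, with 0.404 at 1 to 10 TPM, 0.370 at 10 to 100, 0.345 at 100 to 1000 and 0.290 at 1000 TPM and over. In 62.1% of the genes the highest library was more than 2-fold above the lowest. Among the 7986 nuclear protein-coding genes with a mean of at least 10 TPM, the SD ran from 0.026 to 2.5. The 12 most variable were Gfap, Hr, Actc1, Dusp6, Cox6a2, Apln, Lpo, Sept4, Draxin, Ccnd1, Txnip and Spry4. In 89 of the 100 most variable, replicate 3 was the library farthest from the median. Draxin, a repellent axon guidance protein, had 276 TPM in replicate 3 and 6.4 to 18 in the others, Txnip, an inhibitor of thioredoxin and glucose uptake, 252 and 5.93 to 12.4, and the cardiac actin Actc1 93.8 and 0.624 to 5.92. In the other direction, the peptide Apln had 0.321 TPM in replicate 3 and 29.7 to 48 in the others.

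Without replicate 3 a different set came up, with 4 of the 12 and 22 of the 100 most variable genes shared. Several of its genes were high in replicates 8 and 9. Hr, a nuclear corepressor, had 45.2 and 46.8 TPM there, against 0.854 to 2.73 in replicates 3, 4, 5 and 6. The septin Sept4 had 95.4 and 88.8, against 3.37 to 10.1, the glial potassium channel Kcnj10 961 and 784, against 130 to 177, and the clock-controlled factor Dbp 37.6 and 27.9, against 3.93 to 9.11. Gpd1, an enzyme of glycerol phosphate metabolism, had 1060 and 312 TPM, against 26.7 to 162. The chromatin remodeller Chd3 had 40.2 and 39.6, against 4.37 to 11.6. Scand1 differed from these, with 169 TPM in replicate 6 and 12.3 to 29.8 in the others.

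The steadiest genes were of medium level. Pip5k1a, a lipid kinase, had the smallest SD, with all libraries between 32 and 33.6 TPM. The others of the 12 were Rnf181, Gpr89, Alkbh3, Gusb, Aplp2, Fam168b, Elp3, Rab8a, Ppp1r12c, Brpf1 and Eml1. Aplp2, an amyloid precursor-like protein, was the highest of them at 283 ± 11.3 TPM.

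To set the groups of genes side by side, each gene's deviation from its median library was taken on the log2 scale, and its median was taken over each list. In replicate 3 this was -2.38 for G1/S genes, -1.81 for cholesterol synthesis, -1.10 for D cyclins and the Rb pathway and -0.98 for immediate early genes, and 1.85 for intermediate progenitor genes and 1.09 for long noncoding RNAs, beside 0.01 over all genes. The D cyclin and Rb list was split there, with 5 of its 9 genes lowest and 4 highest in replicate 3, beside 28.1% and 32.6% of all genes. For NMD factors the median in replicate 3 was -0.07 and for Wnt genes 0.05, with 9 of 21 Wnt genes lowest and 9 highest there. Astrocyte genes stood at 0.53, 0.54 and 0.88 in replicates 3, 8 and 9, and oligodendrocyte lineage genes at 0.57, 0.07 and 1.22. In replicates 4, 5 and 6 the median of every list lay between -0.43 and 0.36.

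**Figure D3:**
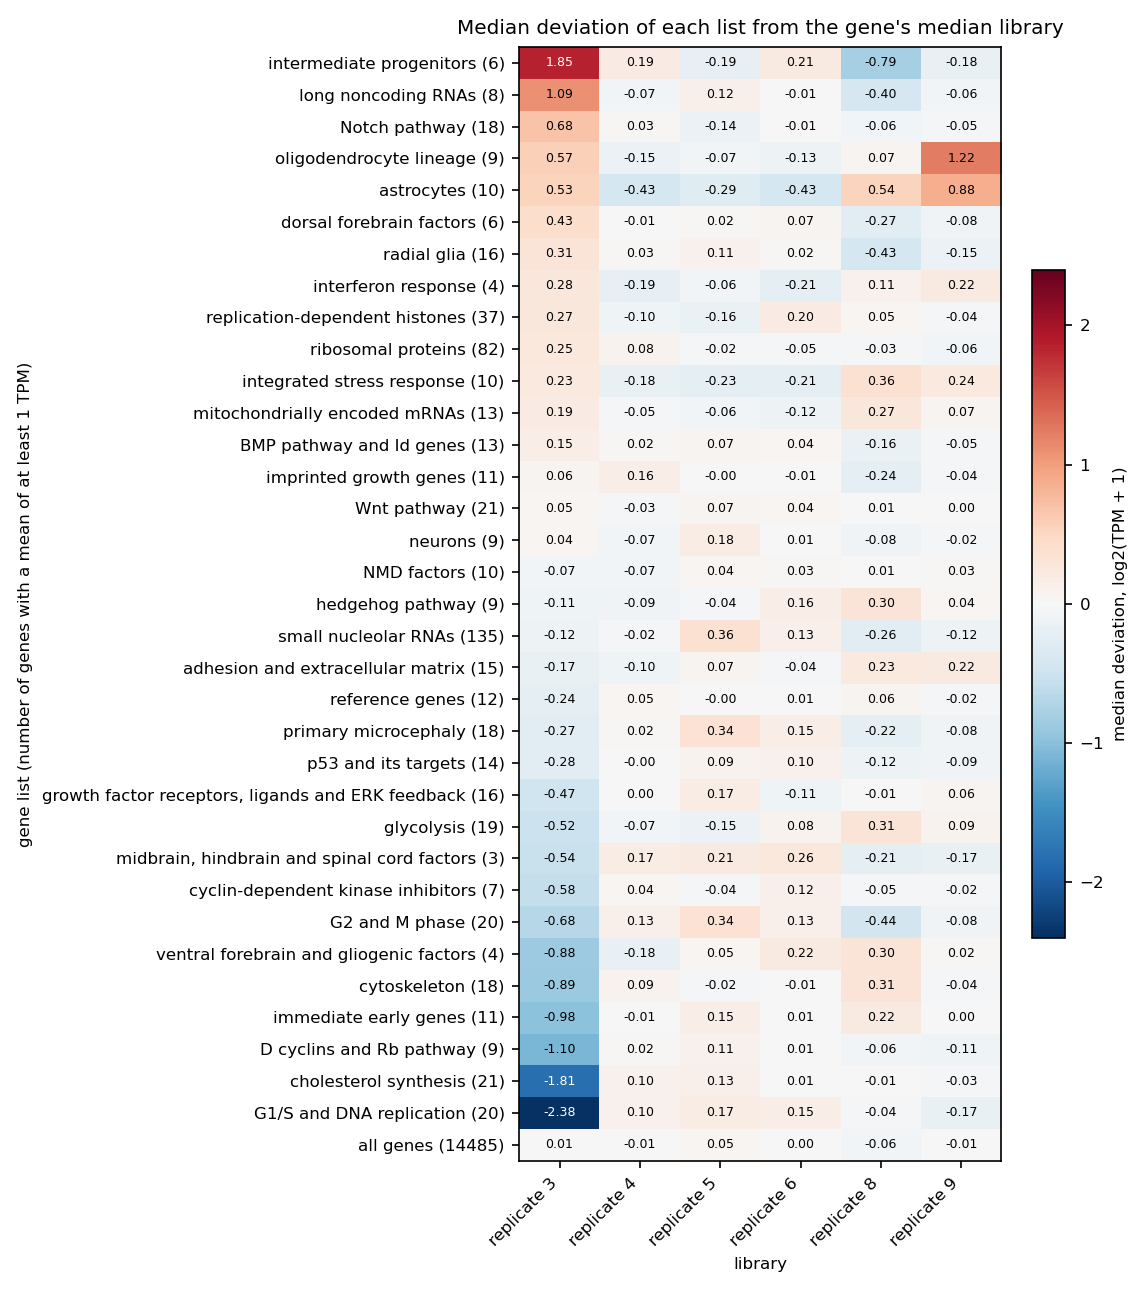
Median over each gene list of the deviation from the gene's median library, on the log2(TPM + 1) scale, for the 6 untreated libraries in columns and the lists in rows, ordered by replicate 3. The strongest colours are in replicate 3, from -2.38 for G1/S and DNA replication to 1.85 for intermediate progenitors, and replicates 4, 5 and 6 are pale.

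Base composition moved with some of these differences. Across 11628 genes the deviation of a library correlated with the GC content of the transcript by Spearman's rho of 0.70 in replicate 8, -0.65 in replicate 5, 0.35 in replicate 9, -0.27 in replicate 4, -0.26 in replicate 6 and 0.00 in replicate 3, a description across genes of the same library. The 20% of genes with the lowest GC content (44.0% or less) were at a median deviation of -0.68 in replicate 8 and 0.42 in replicate 5. Taking deviations relative to genes of the same GC class (5 classes of 20%) left the G1/S median in replicate 3 at -2.37 and that of cholesterol synthesis at -1.81. The astrocyte medians were then 0.69 in replicate 8 and 0.88 in replicate 9, while the G2 and M median in replicate 8 went to -0.12, against -0.44 before. The part of base composition in the levels of single genes was not tested.

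**Figure D4:**
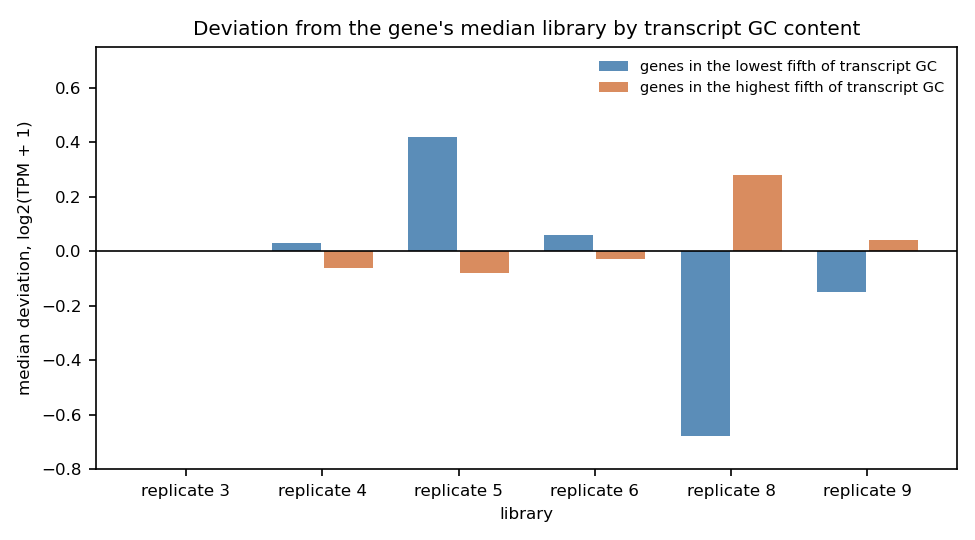
Median deviation from the gene's median library, on the log2(TPM + 1) scale, for the 20% of genes with the lowest and the 20% with the highest transcript GC content, as bars for each of the 6 untreated libraries. Replicate 8 has the largest bars (-0.68 and 0.28), replicate 5 lies the other way in the lowest class (0.42), and replicate 3 is near 0 in both.

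Within a library, related genes were compared by their difference in log2(TPM + 1), since TPM is per length. Of 24 pairs, 18 differed in the same direction in all 6 libraries and passed an exact two-sided permutation test by sign flips (p = 0.031, the smallest that 6 libraries allow, adjusted p = 0.042 by Benjamini and Hochberg over the 24). In 15 of these the first-named gene was higher. The pairs were chosen with earlier results of these data known, so the passes are no independent support. Passing required the same sign in all 6 libraries, and pairs far apart in level, such as Olig2 and Eomes, could hardly have failed. Sox2 was above Pax6 by 4.46 ± 0.38 (SD) and above Sox9 by 0.89 ± 0.55, Fabp7 above Fabp5 by 2.86 ± 0.72, and Slc1a3 above the mature astrocyte transporter Slc1a2 by 3.74 ± 0.59. Notch1 was above Notch2 by 1.41 ± 0.13, the steadiest difference of the 24, although both genes were highest in replicate 3. The glial and ventral factor Olig2 was above Eomes, a factor of dorsal intermediate progenitors, by 9.11 ± 0.56. Eomes was under 1 TPM in every library, so that size moves with the 1 TPM added before the log. With 0.1 TPM added it was 10.67. Emx2 minus Emx1 is counted among the 18 but tests nothing, since Emx1 was listed at 0 in all 6 libraries and any level of Emx2 would pass. Its size, 3.91 with 1 TPM added before the log and 7.13 with 0.1, is set by that addition.

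Among the other pairs that passed, Vim was above Gfap by 6.75 ± 2.5, Tubb5 above the neuronal Tubb3 by 5.68 ± 1.28, Cdk4 above Cdk6 by 8.92 ± 0.59 and Ccnd1 above Ccnd3 by 3.98 ± 1.48 (1.07 in replicate 3 and 4.56 as the mean of the others). Eno1 was above the neuronal enolase Eno2 by 9.15 ± 1.02, Upf1 above Upf2 by 2.81 ± 0.54 and Trp53 above Mdm2 by 2.15 ± 0.59. With 0.1 TPM added before the log, Cdk4 minus Cdk6 was 9.97 and Eno1 minus Eno2 9.81, so these sizes also move with that addition. The second-named gene was higher in 3 pairs: Hes1 minus Hes5 was -2.35 ± 1.59 (-5.44 in replicate 3 and -1.73 as the mean of the others), Fgfr1 minus Egfr -1.20 ± 0.52 and Hk2 minus Hk1, hexokinases of growth and of basal metabolism, -1.57 ± 0.94. In replicate 3 the last difference was -3.26, against -1.88 to -0.66 in the others.

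The 6 pairs that did not pass had libraries on both sides of 0. Vim minus Nes was 0.95 ± 0.98 (exact p = 0.062, adjusted p = 0.071) and 0.58 without replicate 3, with replicate 8 alone below 0. Ccnd1 minus Ccnd2 was 0.69 ± 0.55 and Cdkn1a minus Cdkn1b 1.43 ± 1.28 (each with an exact p = 0.062 and adjusted p = 0.071), and in both replicate 3 alone was below 0. Gli3 minus Gli2 was 0.32 ± 0.49 (adjusted exact p = 0.2) and Upf3b minus Upf3a -0.31 ± 0.37 (adjusted exact p = 0.14). Ldha minus Ldhb was -0.06 ± 1.25 (adjusted exact p = 0.97), with replicates 4, 5 and 6 above 0 and replicates 3, 8 and 9 below. Without replicate 3 it was 0.41, so its sign rests on that library.

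**Figure D5:**
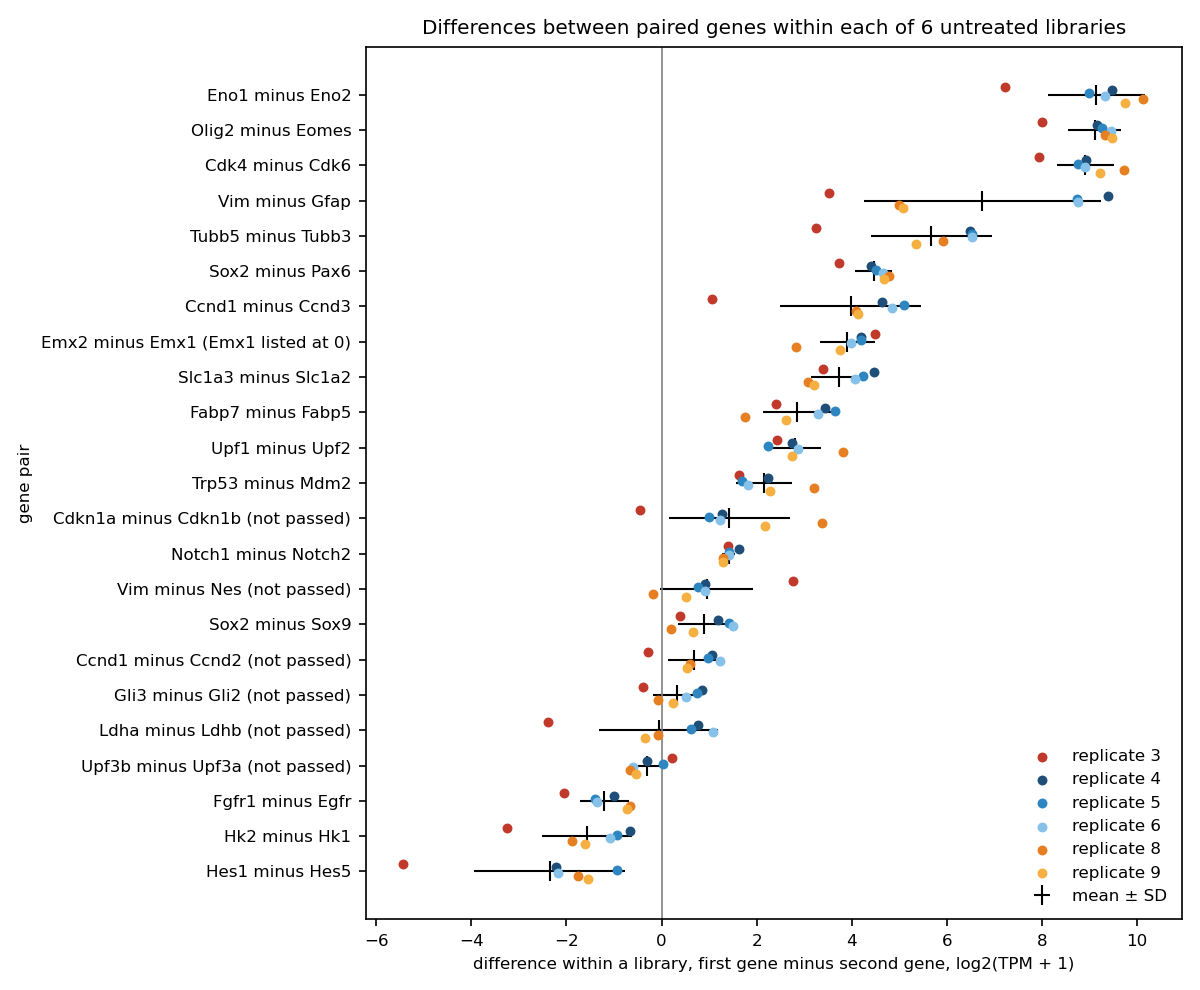
Difference between the genes of each pair described in the text, first minus second, on the log2(TPM + 1) scale, with 1 point for each of the 6 untreated libraries and the mean ± SD. Emx1 is listed at 0 throughout, so its pair is no test. The others that passed the exact test lie wholly on one side of 0, from Eno1 minus Eno2 at 9.15 to Hes1 minus Hes5 at -2.35, and Ldha minus Ldhb spans 0.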

How the data were processed

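The deposited table holds TPM, which the authors computed per gene and scaled to a sum of 1000000 per library. Reads were aligned with STAR to mm10, per the submitters' processing notes, and the quantification tool, its settings and the annotation are not given in the sources used here. Columns were matched to samples by the labels. Of 55573 gene IDs, 55480 were found in GENCODE M21 when the version suffix was left out. A symbol held by several IDs was given the ID of highest mean. Members, lists and tests were chosen with earlier results of these data known.

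From the TPM, log2(TPM + 1) values, means, SDs, ranks, list sums, deviations from the median library and Dixon ratios were computed with Python 3.11.15, pandas 2.3.3, NumPy 2.4.6 and SciPy 1.17.1, and drawn with Matplotlib 3.10.9. Gene pairs were compared by exact two-sided sign flips of 6 differences (64 flips). No count test was run, since TPM are not counts. Near-identical copies were searched with BLAST 2.17.0 among transcripts (at least 95% identity over 50% of the shorter). Promoters were RefSeq windows matched by symbol. Named genes were the 20 highest nuclear protein-coding and 8 highest other genes, the 12 most and 12 least variable with a mean of at least 10 TPM, the highest and lowest members of 42 lists, the members of the 24 pairs and the progenitor markers, Upf2, Trp53 and Cdkn1a; those named from the set of most variable genes without replicate 3 were chosen after their values were seen. Values of a few named genes are not reported here. Alternatives were other minimum levels and pseudocounts, rescaling by median ratios, quantile normalization, protein-coding genes only, no mitochondrial genes, and leaving out each library. The methods were tested on simulated data. Depth per library is unknown, so precision is given by the spread between libraries.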

Additional observations from a re-analysis of the deposited data

Results flagged for a closer look

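In 62 of 238 genes and list sums described above, the highest or the lowest of the 6 libraries lay apart by Dixon's ratio of the gap to the whole range, on the log2(TPM + 1) scale, beyond its 95% critical value. Chance flags about 1 in 20 groups that were not chosen by their spread. Some genes here were, among them the 12 most variable, so the number of flags cannot be judged by that rate. The genes also share their libraries, so the flags are not independent. The library apart was replicate 3 in 47 of the 62, replicate 9 in 6, replicate 8 in 5 and replicate 6 in 4.

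Replicate 3 lay below the other 5 libraries for cell cycle genes, with ratios of gap to range of 0.896 for Mcm3, 0.866 for Cdc6, 0.662 for Mki67 and 0.78 for the G1/S sum, and for the D cyclins Ccnd1 (0.891) and Ccnd2 (0.853). It was also below for the growth factor genes Dusp6 (0.791), Spry1 (0.818), Spry4 (0.838), Etv4 (0.851), Etv5 (0.856), Hbegf (0.824) and Fgfr1 (0.642), and for Myc (0.704) and the sum of immediate early genes (0.811). The same held for the metabolic genes Ldha (0.758), Hk2 (0.797) and Slc2a1 (0.753) and the cholesterol synthesis sum (0.773). Other genes with replicate 3 lowest were Apln (0.871), Atf4 (0.822), Bmp7 (0.917), Esrrb (0.704), Foxc1 (0.642), Jag1 (0.732), Mest (0.638), Olig2 (0.639), Rbfox3 (0.661), Tuba1b (0.827) and Tubb5 (0.725).

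Replicate 3 lay above the others for the Notch receptor Notch1 (0.675) and the Notch sum (0.693), for Sox9 (0.701), Lhx2 (0.668), Neurog2 (0.661), Dlx2 (0.808), Id4 (0.822) and Ptch1 (0.734), and for the noncoding Miat (0.753) and H19 (0.685). The same held for Draxin (0.739), Txnip (0.817), Psat1 (0.868), Eno2 (0.718), Actc1 (0.644), Cox6a2 (0.642) and mt-Co1 (0.789).

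In replicate 6 the values of Gm23935 (0.63), Scand1 (0.672), Jund (0.741) and Dmrta2 (0.667) were the highest. In replicate 8 those of Ctnnb1 (0.657) and Nde1 (0.657) were the lowest. Replicate 9 was highest for Fabp5 (0.664) and the myelin genes Mag (0.962) and Mog (0.811), and lowest for the vascular sum (0.638). Ratios of 1 were given by Hoxa5, Hoxb8 and Ttr in replicate 8 and by Bmp4 and Col3a1 in replicate 9, genes that were above 0 in that library alone and under 0.2 TPM there.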

How the results depend on the processing

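No paired analysis was possible because 1 group of 6 libraries is described. The 31 main results were recomputed 250 times under alternatives. Of these values 243 stayed within 1.5 times the count, within the replicate spread, on the same side of the test or, for untested pairs, on the same side of 0. Most of the 250 were pairs with a library left out, where the fewer differences cannot pass the test. These were judged by the sign of the difference alone. The counts of members at 1 TPM in 42 lists were recomputed 378 times, and 354 stayed within 1.5 times the main count. The other 24 moved, most of them with another minimum: of histones 14 became 44 at 0.1 TPM and 8 at 5 TPM, of neuronal genes 6 became 10 and 3, and at 5 TPM small nucleolar RNAs went to 31, against 79, microcephaly genes to 11, against 17, and immediate early genes to 6, against 11. Without replicate 3 the midbrain, hindbrain and spinal cord count was 2, against 1, and that of pluripotent cells 1, against 0; without replicate 5 that of interneurons was 1, against 0, and without replicate 4 that of interferon genes 2, against 1. Without mitochondrially encoded genes the 10, 100 and 1000 highest genes held 8.28%, 29.2% and 63.2% of the total. The median spread was 0.251 with no minimum level and 0.147 in replicates 4, 5 and 6 alone, a setting chosen after seeing the data. The difference Ldha minus Ldhb turned to 0.41 without replicate 3 and to 0.00 without replicate 9, in a range of -0.28 to 0.41 over the libraries left out. Leaving out each library in turn gave 12708 to 12971 genes at 1 TPM in all remaining libraries, a spread of 0.284 to 0.408, 428 to 437 list members at 1 TPM, and shares of 11.2% to 11.7%, 32.3% to 33.0% and 64.9% to 65.7%. With a minimum of 0.1 or 5 TPM, 16610 or 9019 genes passed, and 18 pairs passed with a pseudocount of 0.1 and on protein-coding genes alone. The unknown depth limits what can be said of genes under 1 TPM.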
